A study of Mus musculus with 12 samples.

Results

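The hemisphere that held a stroke was compared with the opposite hemisphere of wild-type (WT) brains, using 6 of the 12 bulk RNA-seq libraries of the series. Membership followed the labels alone: 3 WT ipsilateral libraries, from the side of the blocked artery, and the 3 WT contralateral libraries that carry the same numbers. The labels do not state that a number marks the same mice on both sides. Libraries of 1 number are called a pool here and were paired in the fit by that number. Their counts also deviated together. The mice were males of 12 weeks. Their left middle cerebral artery was blocked by a filament for 60 min and blood was let back in for 24 h. Each library pooled the hemispheres of 2 mice, taken after perfusion with cold buffer and without olfactory bulb and cerebellum. The other 6 libraries, 3 ipsilateral and 3 contralateral, came from Lama4-/- mice, which lack the laminin alpha 4 chain of vessel basement membranes, after the same operation. They serve here as an independent set, and they also enter the fit with all 12 libraries and the test of the difference between genotypes. The protocol aimed to deplete blood leukocytes through washes and differential spins. No unoperated brain is among the samples used here, so the contralateral hemisphere is a control without stroke in an operated animal.

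The middle cerebral artery feeds the striatum and much of the cortex. When it is closed, neurons of the core lose their energy supply within minutes, and the surrounding tissue mounts a response of heat shock proteins, immediate early transcription factors and cytokines. Astrocytes then turn reactive, microglia become phagocytic, and the vessel wall is remodelled by proteases while leukocytes begin to enter. At 1 day after the occlusion these programs overlap, and a hemisphere taken whole mixes infarct, border zone and spared tissue.

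The 3 WT ipsilateral libraries held 39818156, 35125481 and 36302301, and the 3 WT contralateral libraries 35493787, 27537167 and 44113824 reads in genes. Mitochondrially encoded genes took 2.71%, 3.16% and 2.79% of the reads in ipsilateral and 2.98%, 3.65% and 3.25% in contralateral libraries of pools 1, 2 and 3, so this share was lower on the stroke side of each pool. Levels below are CPM, the usual depth-scaled read count, here on the TMM-adjusted size of each library, and changes are log2 fold changes, ipsilateral over contralateral, with the standard error (SE) of the paired edgeR fit. The tissue carried the usual markers: Slc17a7, the vesicular glutamate transporter of forebrain excitatory neurons, stood at 1083, 1057 and 1102 CPM in ipsilateral and 1172, 1296 and 1197 CPM in contralateral libraries. Globin reads were few. Hba-a1, an alpha globin gene, had 0 to 1 reads in ipsilateral and 0 in contralateral libraries, and whether the counting lost its reads was not tested. The beta globin Hbb-bs was found in every library, at 1.72, 1.57 and 2.78 CPM against 1.41, 2.17 and 2.97 CPM. Lama4, the gene that the knockout lacks, had 8 to 33 reads in ipsilateral and 6 to 13 in contralateral libraries of Lama4-/- mice, against 523 to 601 reads in ipsilateral and 198 to 398 in contralateral libraries of WT mice.

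edgeR's quasi-likelihood test with pool as a block called 4826 of 15056 tested genes at an adjusted p under 0.05, 2568 higher (17.1%) and 2258 lower (15%) in the ipsilateral hemisphere. The change was lopsided in size. Of the genes called, 588 differed at least 2-fold, 547 of them higher and 41 lower. Among the genes tested, 57 had a log2 fold change above 3, all of them called, and none lay below -2. The lower calls were mostly small, 2089 of them by less than 0.585 on the log2 scale, which is 1.5-fold. The 3 ipsilateral libraries all stood above the 3 contralateral ones for 3200 genes (21.3%) and all below for 2633 (15056 tested, 17.5%). Without the block 2885 genes were called, and without pool 3 only 2183, whereas the count at 2-fold or more was 551 and 549 in the same 2 fits.

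**Figure D1:**
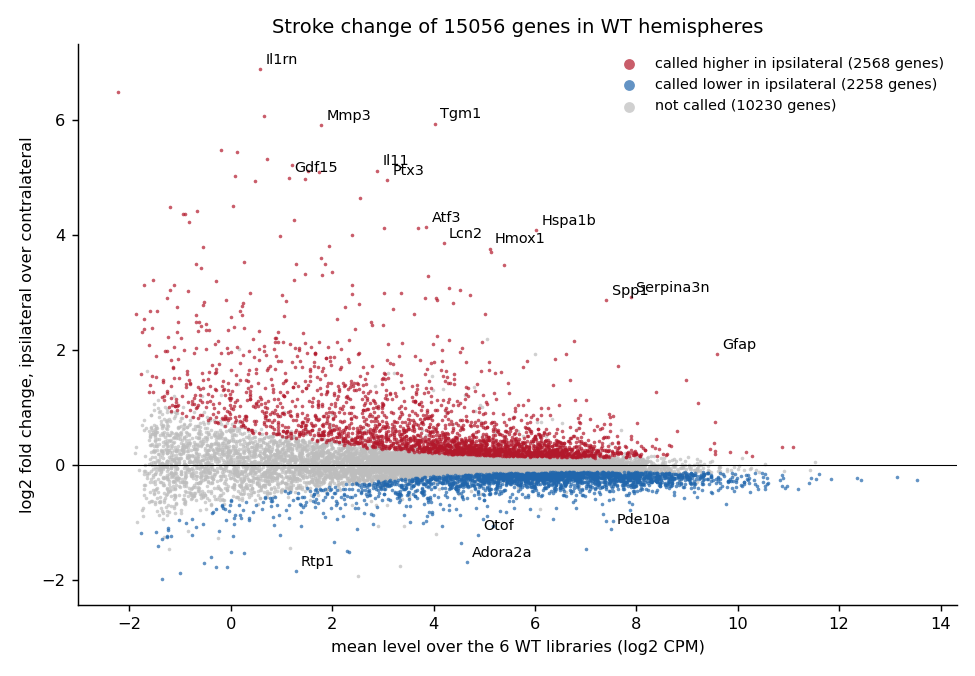
Log2 fold change, ipsilateral over contralateral, against the mean level in log2 CPM of the 15056 genes tested in WT, with 1 point a gene; red points were called higher and blue points lower at an adjusted p under 0.05. The higher calls reach 6.88 (Il1rn), and no gene lies below -2.

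The 15 largest increases at a mean level of at least 1 log2 CPM without overlap are given first. Tgm1 (chromosome 14, 55700009 to 55713921, GRCm38), a transglutaminase of the skin barrier, had 15.2, 48.3 and 31.4 CPM in ipsilateral and 0.403, 0.822 and 0.348 CPM in contralateral libraries. Its log2 fold change was 5.93 ± 0.15 (adjusted p = 4.75e-08), and even the lowest ipsilateral library stood far above every contralateral one. Mmp3 (chromosome 9, 7445822 to 7455975), the matrix protease stromelysin, had 3.53, 11.7 and 4.54 CPM against 0.144, 0.112 and 0.0464 CPM (5.91 ± 0.29, adjusted p = 9.53e-07). Il11 (chromosome 7, 4772373 to 4782907), a cytokine that signals through gp130, had 6.75, 25.6 and 10.0 CPM against 0.288, 0.486 and 0.348 CPM (5.12 ± 0.19, adjusted p = 1.52e-07). In these genes pool 2 was the highest ipsilateral library, and the groups did not overlap. The other largest increases were those of Ccl4, Klk9, Gp49a, Gdf15, Cxcl1, Ptx3, Lilrb4, Ccl3, Atf3, Lgals3, Msr1 and Hspa1b, from 5.21 down to 4.08 on the log2 scale. Gp49a and Lilrb4 are names of closely related genes, as are Hspa1a and Hspa1b, and the counting may have split their reads. Ereg, an epidermal growth factor ligand, had no read in any contralateral library and 12, 12 and 11 reads in the ipsilateral ones; it was named after its values were seen as the single gene with at least 10 reads in each library of one side and 0 on the other.

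**Figure D2:**
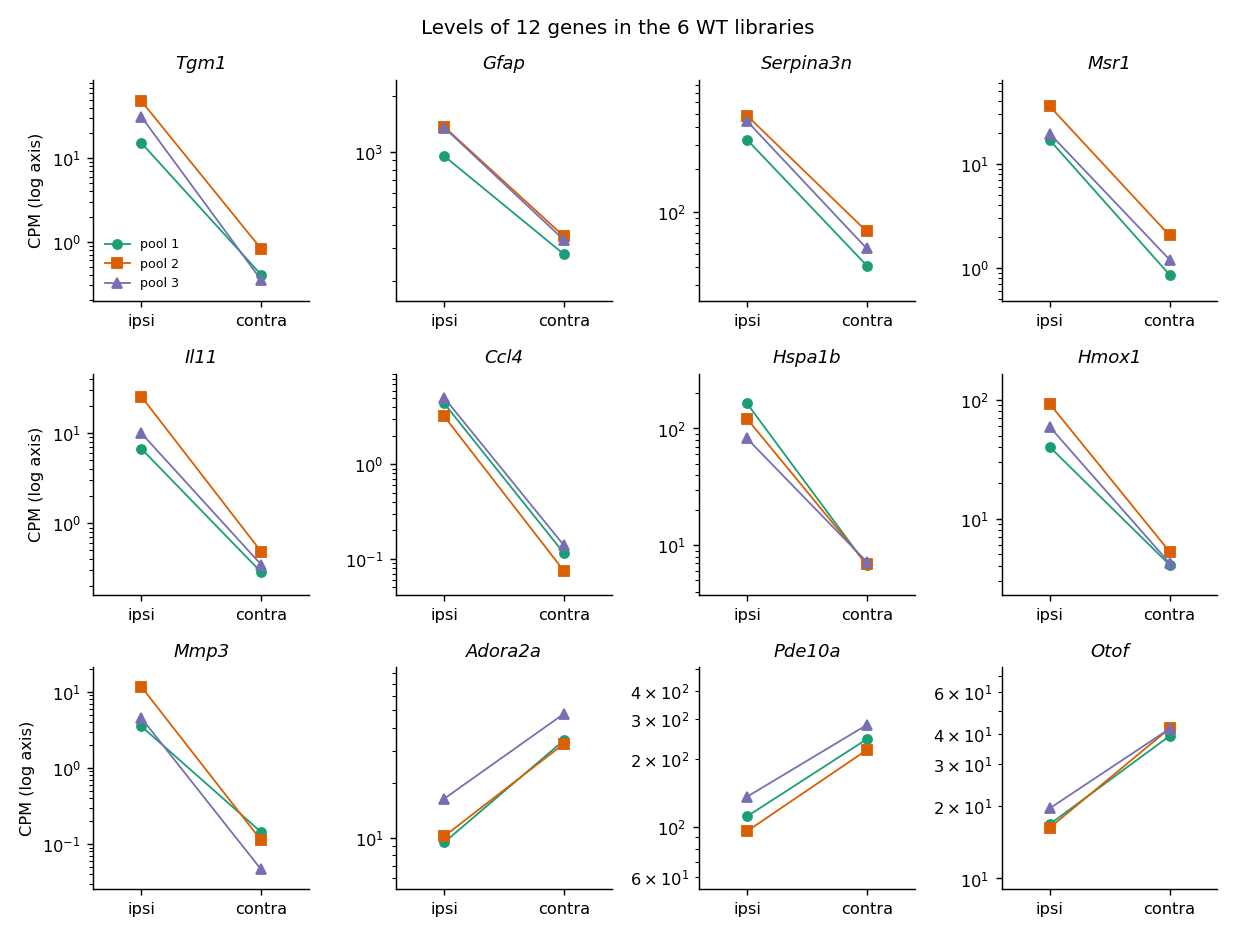
CPM on a log axis of 12 genes in the 6 WT libraries, ipsilateral at the left and contralateral at the right of each panel; a line joins the 2 libraries of the same number. The 9 genes called higher and the 3 called lower (Adora2a, Pde10a, Otof) show no overlap between hemispheres.

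Striatal genes had the lowest median of any list with at least 3 tested genes. All 18 tested markers of medium spiny neurons, the GABAergic output cells that make up most of the striatum, were called lower, where 15% of all genes were, and the median log2 fold change was -0.88, against 0.00 over all genes. Adora2a (chromosome 10, 75316877 to 75334792), the adenosine receptor of the indirect pathway, had 9.4, 10.2 and 16.3 CPM in ipsilateral and 34.2, 32.8 and 47.9 CPM in contralateral hemispheres. Its log2 fold change was -1.70 ± 0.07 (adjusted p = 4.27e-07), and the hemispheres did not overlap. Pde10a, the phosphodiesterase that breaks down cyclic nucleotides in both output pathways (chromosome 17, 8525187 to 8986648), had 111, 95.8 and 136 CPM against 245, 219 and 283 CPM (-1.13 ± 0.05, adjusted p = 3.5e-07). Every striatal marker was separated in the same way, with the 3 ipsilateral libraries below the 3 contralateral ones, where 17.5% of all genes were. Markers of the indirect pathway, Drd2 (-1.08 ± 0.08) and Penk (-0.98 ± 0.06), and of the direct pathway, Drd1 (-0.90 ± 0.08) and Tac1 (-0.83 ± 0.07), both fell. Foxp1, a transcription factor that the cortex shares, fell least, by 0.30. In bulk tissue, fewer cells of a type and less RNA per cell cannot be told apart.

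Several of the 15 lowest genes outside that list carried the same size of decrease. Rtp1, which helps odorant receptors to the membrane, had 1.03, 0.979 and 1.15 CPM against 3.71, 4.82 and 3.13 CPM and the largest decrease among genes at a mean of at least 1 log2 CPM without overlap, -1.86 ± 0.19 (adjusted p = 8.01e-05). Lrrc10b had 10.6, 14.5 and 14.4 CPM against 32.5, 33.7 and 34.5 CPM (-1.36 ± 0.08), and Ankrd63 21.2, 19.2 and 30.01 CPM against 49.2, 45.8 and 51.3 CPM (-1.07 ± 0.10). Both genes stood apart in all 3 pools. Sh3rf2, Frmd7, Crybb1, Rxrg, a retinoid X receptor, and the orphan receptor Gpr52 lay between -1.51 and -1.02. Cd4, better known as the helper T-cell coreceptor, was the only tested member of the lymphocyte list, at 1.52, 2.52 and 2.96 CPM against 5.64, 5.01 and 6.8 CPM (-1.34 ± 0.17, adjusted p = 0.000441). Its decrease came with no T-cell gene at a countable level, as Cd3e, Cd3d, Cd3g and Cd8a had 0 to 9 reads in any WT library.

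Of 18 cortical excitatory and layer markers, 7 fell, 1 rose and 10 were not called, with a median log2 fold change of -0.11. Otof, the calcium sensor otoferlin, which marks some superficial cortical neurons, fell most, with 16.9, 16.3 and 19.6 CPM against 39.3, 42.3 and 42.2 CPM (-1.23 ± 0.07, adjusted p = 1.33e-06). Lamp5, a membrane protein of upper layers and neurogliaform interneurons, had 81.9, 82.2 and 85.4 CPM against 119.8, 148 and 127 CPM (-0.66 ± 0.06, adjusted p = 9.68e-05). In both genes the hemispheres did not overlap. The bHLH factor Neurod2 was the gene that rose, to 105, 109 and 88.5 CPM against 82.6, 81.5 and 74.3 CPM (0.34 ± 0.05), although with all 12 libraries in the fit its adjusted p was 0.14. Tbr1, Cux2, Fezf2 and Rorb, transcription factors that define layers, were not called and lay between -0.07 and 0.09. Without the block 4 cortical markers were called lower, as without pool 3 and with all 12 libraries, and without pool 2 it was 3 rather than 1 that were called higher.

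Of 16 markers of GABAergic interneurons 7 fell and none rose, and the median was -0.25. Calb2, the calcium buffer calretinin, had 39.4, 42.5 and 52.1 CPM against 79.1, 77.7 and 70.2 CPM (-0.77 ± 0.11, adjusted p = 0.00542), but its adjusted p without pool 2 was 0.0721. Gad1 and Slc32a1, which make and load GABA, fell by 0.24 and 0.28 on the log2 scale, whereas Gad2 (0.00), Sst (-0.01) and Pvalb (-0.18) were not called. Gad1, Gad2 and Slc32a1 serve GABAergic cells in general, medium spiny neurons among them, so they do not mark interneurons alone. Of 12 hippocampal markers 1 was higher and none lower, and 2 of 13 thalamic markers were lower, a share near the 15% of all genes called lower. Both lists varied between pools. The median of the hippocampal list was 0.10, 0.32 and -0.71 and that of the thalamic list -0.17, 0.12 and -0.45 in pools 1, 2 and 3. Fibcd1, a marker of CA1 neurons, had 28.2, 33.9 and 15.03 CPM in the ipsilateral and 35.5, 36.3 and 33.8 CPM in the contralateral libraries, so that pool 3 alone was low. Prkcd, a kinase of thalamic relay cells, had 86.6, 160.3 and 50.5 CPM against 100.5, 107 and 94.4 CPM. Whether the tissue taken differed in pool 3 was not tested. Without pool 3, 3 hippocampal markers were called higher and without pool 1, 2. Without pool 2 none was higher, and 1 hippocampal and 6 thalamic markers were lower; without pool 1, or with all 12 libraries, it was 1 thalamic marker. No hippocampal marker was higher without the block or with all 12 libraries.

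**Figure D3:**
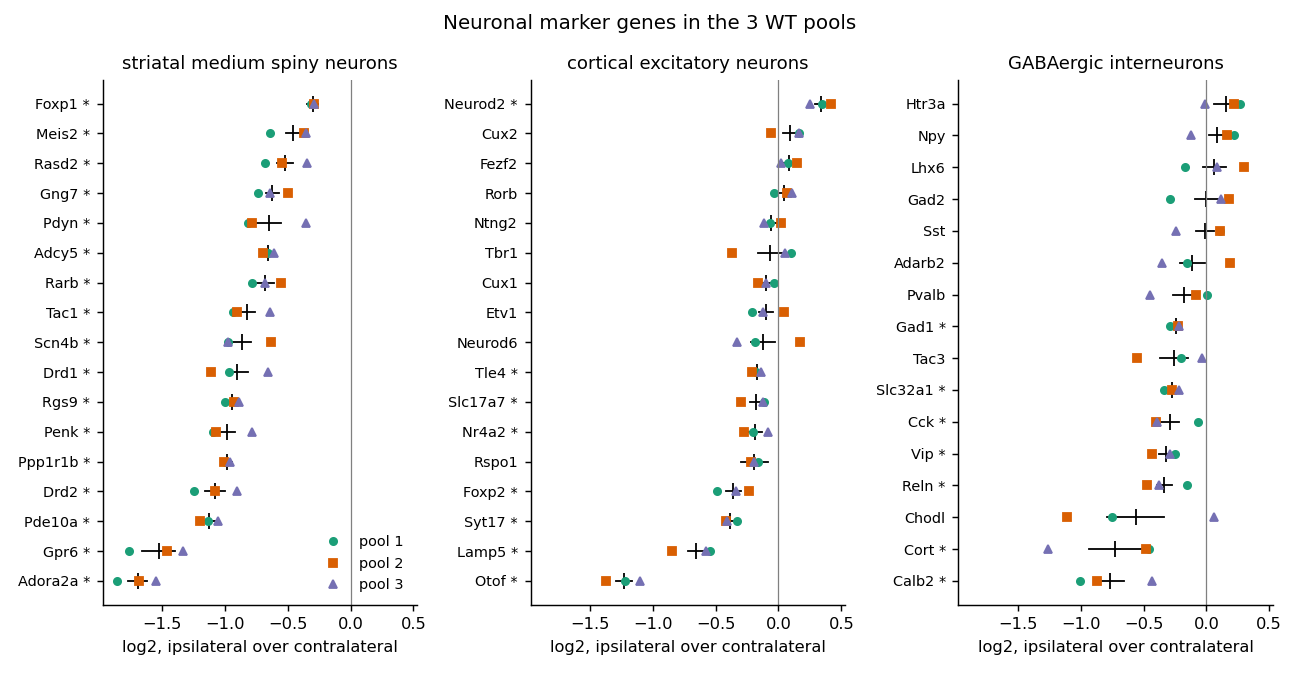
Log2 ratio of ipsilateral over contralateral CPM of 17 striatal, 17 cortical and 16 interneuron markers in pools 1, 2 and 3 (points), with the fitted log2 fold change (tick) and its SE (line); an asterisk marks genes called. The striatal markers all lie below 0 in each pool, whereas cortical markers lie on both sides of 0.

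The choroid plexus list had 7 of 14 genes lower and none higher with a median of -0.52, where 15% of all genes were called lower. The 14 genes of ependymal cilia had 3 lower ones (1 without pool 1 or with all 12 libraries, and none with DESeq2). Pool medians of the choroid plexus list were -0.70, -0.09 and -0.72. Ttr, the thyroid hormone carrier of the plexus, was not called, at 385, 589 and 374 CPM against 464, 482 and 601 CPM. Without pool 1 the plexus count was 3, without pool 3 it was 2, and without pool 2 it was 10. Among 13 hypothalamic neuropeptides 4 were lower and 1 higher. Agrp, the hunger peptide, had 0.343, 0.504 and 0.668 CPM against 1.9, 1.83 and 0.766 CPM (-1.51 ± 0.40), a call lost without pool 1 (adjusted p = 0.119) and without pool 2 (adjusted p = 0.0933). Without pool 1, and also without pool 2, 1 hypothalamic gene was called lower and none higher; without pool 3 it was 6 lower and none higher, with DESeq2 2 lower and none higher, and with a floor of 1 CPM in 3 libraries none higher.

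Of 17 genes of synaptic vesicle release 11 were lower and none higher, with a median of -0.23 on the log2 scale. Syt1, the calcium sensor of release, had 1333, 1351 and 1437 CPM against 1710, 1723 and 1734 CPM (-0.33 ± 0.04, adjusted p = 0.000415), and Syp, a vesicle membrane protein, fell by 0.33. Of 23 glutamate and GABA receptor genes 16 fell and none rose (median -0.29). Grm5, a metabotropic glutamate receptor abundant in striatum, fell most among those called, with 217, 188 and 215 CPM against 290.1, 284 and 298 CPM (-0.50 ± 0.05, adjusted p = 5.66e-05), and no ipsilateral library reached the contralateral range. Ion channels had 13 of 23 genes lower and none higher, led by the potassium channel subunits Kcnab1 (-0.53 ± 0.04) and Kcnd2 (-0.53 ± 0.04). Axon guidance genes had 7 of 23 lower and none higher, and without pool 1, 1 vesicle gene was called higher. Without the block or with all 12 libraries the channel count was 7, and without pool 3 the counts were 10 receptors, 5 channels and 1 guidance gene; the guidance count was 4 without the block, with all 12 libraries and with DESeq2.

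All 21 reactive astrocyte genes were called higher, where 17.1% of all genes were, 19 of them at least 2-fold, with a median log2 fold change of 2.63. Gfap (chromosome 11, 102887336 to 102897200), the intermediate filament of astrocytes, had 947, 1364 and 1352 CPM in ipsilateral and 278, 347 and 332 CPM in contralateral hemispheres (1.92 ± 0.06, adjusted p = 4.75e-08). Serpina3n, a secreted protease inhibitor, had the lowest p of all genes in the table (adjusted p = 1.46e-08), with 326, 484 and 442 CPM against 41.2, 72.1 and 54.5 CPM (2.92 ± 0.06). Neither gene overlapped between hemispheres. Ptx3, a soluble pattern recognition protein, rose by 4.95 ± 0.26, and Sbno2, a cofactor induced by gp130 cytokines, had 75.4, 93.4 and 78.9 CPM against 23.5, 27.2 and 25.4 CPM (1.70 ± 0.05, adjusted p = 4.75e-08). Lcn2, the iron-binding lipocalin, had 12.9, 61.9 and 27.6 CPM against 1.98, 4.19 and 0.859 CPM (3.86 ± 0.47), a call lost without pool 2 (adjusted p = 0.11). Homeostatic astrocyte genes went mostly the other way, with 9 of 15 lower and 2 higher (median -0.31). The glutamate transporters Slc1a2 (-0.41 ± 0.06) and Slc1a3 (-0.33 ± 0.05) and the gap junction protein Gja1 (-0.48 ± 0.05) fell. Aqp4, the water channel of astrocyte endfeet, rose by 0.31 ± 0.05. Without the block 5 homeostatic genes were called lower and 1 higher.

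Among 18 genes of activated and phagocytic microglia 15 rose and 1 fell, with a median of 1.63. Msr1, a scavenger receptor, had 16.9, 35.7 and 19.5 CPM against 0.863, 2.06 and 1.21 CPM (4.12 ± 0.10, adjusted p = 1.46e-08), and Lgals3, galectin 3, 12.8, 21.5 and 10.6 CPM against 0.834, 1.08 and 0.603 CPM (4.13 ± 0.13, adjusted p = 4.75e-08). Both were highest in pool 2 on each side and did not overlap. Spp1, osteopontin, had 255, 464 and 179 CPM against 50.9, 46.8 and 22.9 CPM (2.86 ± 0.26). Apoe, the lipid carrier that astrocytes also make, was the member that fell (-0.42 ± 0.06). Of 15 homeostatic microglial genes 5 rose, 4 fell and 6 were not called, with a median of 0.06. Fcrls, an Fc receptor-like gene, had 52.1, 42.2 and 55.9 CPM against 11.9, 7.4 and 15.5 CPM (2.13 ± 0.12, adjusted p = 4.11e-05). P2ry12, the purinergic receptor of surveying microglia, had 13.1, 8.11 and 11.9 CPM against 22.98, 12.7 and 24.8 CPM (-0.85 ± 0.09, adjusted p = 8.58e-05), and Siglech 6.21, 4.34 and 4.14 CPM against 10.5, 6.62 and 9.82 CPM (-0.88 ± 0.13). P2ry12 overlapped between hemispheres, pool 2 being low on both sides, although it was lower in the ipsilateral library of each pool, and its adjusted p without the block was 0.0729. Without the block, and likewise without pool 3, 2 homeostatic genes were called lower.

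Blood leukocytes left few reads. Of 13 neutrophil markers 4 passed the filter and 2 of these were called higher, S100a8 (0.981, 1.23 and 0.561 CPM against 0.259, 0.449 and 0.209 CPM, 1.59 ± 0.28) and S100a9 (0.89 ± 0.25), both calprotectin subunits. The S100a9 call was lost without any single pool, with adjusted p of 0.139, 0.0598 and 0.0609 without pools 1, 2 and 3, and with all 12 libraries (adjusted p = 0.257). The defining neutrophil gene Ly6g had 0 to 1 reads in ipsilateral and 0 in contralateral libraries, and Elane, neutrophil elastase, 0 to 1 reads in ipsilateral and 0 to 1 in contralateral libraries. Other untested markers had more ipsilateral reads, Cxcr2 with 9, 15 and 5 against 1, 0 and 2 and Trem1 with 2, 33 and 10 against 1, 3 and 0. Retnlg, Mmp8, Ngp, Camp and Ltf had 12 reads or fewer in any WT library, and their hemispheres overlapped. Summed over all 13 neutrophil markers, tested or not, ipsilateral libraries held 9.45 to 11.1 CPM and contralateral libraries 8.49 to 8.90 CPM. Of 12 monocyte genes 8 were tested, and 7 rose, among them Arg1, arginase 1 (0.785, 2.69 and 1.2 CPM against 0.201, 0.299 and 0.116 CPM, 2.87 ± 0.31), and Ms4a6c (2.17 ± 0.13); Ly6c2, which marks inflammatory monocytes, had 1 to 2 reads in ipsilateral and 0 in contralateral libraries. Border-associated macrophage genes had 4 of 10 higher and none lower, led by the hyaluronan receptor Lyve1 (1.92 ± 0.14). Of 13 lymphocyte genes only Cd4 was tested. Without pool 3, 4 monocyte genes were called; with a floor of 1 CPM in 3 libraries that count was 4 too, and no neutrophil gene was then called. With DESeq2 1 neutrophil gene was called and with no filter 4.

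Of 14 mature myelin genes 5 rose and 2 fell, and of 14 precursor genes 2 rose and 6 fell. Over all genes 17.1% were called higher and 15% lower, so the 2 myelin genes that fell and the 2 precursor genes that rose are shares near these. Opalin, a membrane protein of oligodendrocytes, had 14.1, 15.6 and 12.8 CPM against 9.15, 7.4 and 7.89 CPM (0.79 ± 0.10, adjusted p = 0.000316), and Gjb1, the gap junction protein connexin 32, 19.7, 17.5 and 21.6 CPM against 13.7, 9.05 and 11.8 CPM (0.77 ± 0.09, adjusted p = 0.000239). Neither overlapped between hemispheres. Mbp, an abundant myelin message, was not called (-0.10). Gpr17, a receptor of committed precursors, fell (-0.52 ± 0.08), as did Neu4 (-0.45 ± 0.09) and Cacng4 (-0.47 ± 0.08); the Neu4 call was lost without pool 3 (adjusted p = 0.0721). The myelin median was 0.10 over the 3 pools but 0.45 in pool 2 and -0.03 and -0.05 in pools 1 and 3. Without pool 2, 5 myelin genes were called lower, and none without pool 1, pool 3 or the block; of the precursors 2 were called lower without pool 3, and none was called higher without the block and 1 without pool 1.

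Innate sensing begins at receptors that bind microbial or damage signals and leads to cytokines and their feedback inhibitors. Of 16 Toll-like receptors and innate sensors tested 12 rose and none fell, led by Cd14, the lipopolysaccharide coreceptor (2.87 ± 0.34), and including Tlr1, Tlr2, Tlr4, Tlr7 and Tlr13. Only Tlr7 of these named genes lost its call in a fit that tested it, without the block (adjusted p = 0.0598). Of 13 interleukin 1 family genes 11 rose. Il1rn, the secreted antagonist of the interleukin 1 receptor, had 2.36, 3.78 and 2.19 CPM against 0.0288, 0 and 0.0232 CPM, which corresponds to 1 read or fewer in each contralateral library. Il33, an alarmin that glia store in the nucleus, had 145, 214 and 175 CPM against 44.6, 31.0 and 43.2 CPM (2.15 ± 0.28, adjusted p = 0.0257). Il1b itself was near the floor, at 0.638, 0.559 and 0.587 CPM against 0.431, 0.299 and 0.232 CPM (0.90 ± 0.31, adjusted p = 0.048). Without the block 7 family members were called, with DESeq2 6, with a floor of 1 CPM 6, and without pool 3 7; without pool 2, 1 was called lower.

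Chemokines held 12 higher and 3 lower genes among 18 tested, with a median of 2.38. Ccl4 had 4.39, 3.22 and 5.05 CPM against 0.115, 0.0748 and 0.139 CPM (5.21 ± 0.24, adjusted p = 6.61e-07) and Ccl3 3.36, 4.87 and 4.59 CPM against 0.144, 0.299 and 0.232 CPM (4.25 ± 0.22, adjusted p = 9.84e-07); both attract monocytes. Cxcl1, which draws neutrophils, had 1.72, 11.7 and 2.43 CPM against 0.201, 0.0748 and 0.116 CPM (4.97 ± 0.51, adjusted p = 0.000831). Its ipsilateral value in pool 2 was several times those of pools 1 and 3, whereas Ccl4 was lowest in pool 2, so the chemokines did not follow a single order of pools. Cx3cl1, the neuronal ligand of microglial Cx3cr1, was the chemokine with the highest CPM and fell, with 541, 461 and 519.8 CPM against 707, 616 and 705 CPM (-0.42 ± 0.04, adjusted p = 8.1e-05). Cxcl12 (-0.30 ± 0.07) and Cxcl14 (-0.26 ± 0.07) were the other 2 that fell, with adjusted p of 0.0882 and 0.165 without pool 3 and, for Cxcl14, 0.0939 without pool 1 and 0.0953 without the block. Among 10 chemokine receptors 4 rose, the largest Ccr1 (2.33 ± 0.32), which binds Ccl3; 2 were called without the block, without pool 1, without pool 3 or with DESeq2.

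The gp130 family, whose cytokines signal through Stat3 to reactive astrocytes, had 11 of 16 genes higher and 1 lower. Beside Il11, the ligands Lif (3.31 ± 0.42), Clcf1 (3.21 ± 0.21), Osm (2.90 ± 0.44) and Il6 rose. Il6 had 0.638, 4.17 and 0.854 CPM against 0.0863, 0.0748 and 0.0464 CPM (4.50 ± 0.42, adjusted p = 5.01e-05), with pool 2 far above the other two. The shared receptor Il6st rose by 0.41 ± 0.06, Osmr by 2.63 ± 0.19, Stat3 by 1.13 ± 0.05 and its feedback inhibitor Socs3 by 2.91 ± 0.14. Cntfr, the receptor of ciliary neurotrophic factor, fell (-0.27 ± 0.05), with adjusted p of 0.0692 without pool 3 and 0.0503 without the block. Of 18 tumour necrosis factor family genes 11 rose and none fell. Tnf had 0.687, 0.923 and 1.01 CPM against 0.173, 0.0374 and 0.0928 CPM (3.02 ± 0.42, adjusted p = 0.000519) and its receptor Tnfrsf1a 44.7, 57.4 and 55.9 CPM against 15.4, 15.6 and 14.3 CPM (1.79 ± 0.08, adjusted p = 2.63e-06). The NF-kappaB list had 9 of 14 higher, led by Bcl3 (3.13 ± 0.15), a nuclear IkappaB protein; 4 were called without pool 3. TGF-beta and BMP genes had 9 of 23 higher, led by Gdf15, a stress cytokine, at 4.64, 3.41 and 4.03 CPM against 0.0863, 0.15 and 0.139 CPM (4.99 ± 0.26, adjusted p = 1.07e-06); without pool 3 it was 4 of the list.

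Of 19 complement genes 15 rose and none fell, among them the anaphylatoxin receptors C3ar1 (2.62 ± 0.10) and C5ar1 (2.47 ± 0.12). Of 23 interferon-stimulated genes 22 rose and 1 fell, with a median of 1.502. Rsad2, the antiviral enzyme viperin, had 5.74, 3.97 and 4.11 CPM against 1.12, 0.785 and 1.37 CPM (2.04 ± 0.19, adjusted p = 4.32e-05), and Oas1a, an oligoadenylate synthetase, 0.883, 0.895 and 0.908 CPM against 0.345, 0.0748 and 0.209 CPM (2.03 ± 0.36, adjusted p = 0.00218). The hemispheres did not overlap for either, nor for any of the 22, where 21.3% of all genes had every ipsilateral library above the contralateral ones. Most stood at a few CPM, and the transcription factors Irf7 (1.95 ± 0.19), Irf9 (1.03 ± 0.11) and Stat2 (0.35 ± 0.06) rose as well. Cmpk2 was the gene that fell, by 0.18, and its call was lost without the block (adjusted p = 0.187), without pools 1, 2 and 3 in turn (adjusted p = 0.0557, adjusted p = 0.128 and adjusted p = 0.159), in DESeq2 (adjusted p = 0.149) and with all 12 libraries (adjusted p = 0.0725). Of 16 genes of major histocompatibility complexes and antigen processing 10 rose and none fell, including Nlrc5, the activator of class I genes (1.88 ± 0.16), Tap1 (1.16 ± 0.12) and Cd74 (1.13 ± 0.12).

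The promoters of 2 of these genes are shown because their start regions hold the letters that interferon-activated factors are known to bind. The RefSeq windows (GRCm38.p6) cover the 250 bases before the start, 5′ to 3′ on the gene's strand, and capitals mark GAAANNGAA, searched on both strands and so marked also where its complement is read.
Rsad2 (chr12:26456453-26456702, minus strand): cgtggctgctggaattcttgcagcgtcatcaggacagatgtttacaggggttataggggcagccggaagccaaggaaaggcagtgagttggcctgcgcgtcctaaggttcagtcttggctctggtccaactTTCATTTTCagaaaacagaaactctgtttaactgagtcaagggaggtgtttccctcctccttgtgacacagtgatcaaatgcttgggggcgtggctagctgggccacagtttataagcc
Oas1a (chr5:120907526-120907775, minus strand): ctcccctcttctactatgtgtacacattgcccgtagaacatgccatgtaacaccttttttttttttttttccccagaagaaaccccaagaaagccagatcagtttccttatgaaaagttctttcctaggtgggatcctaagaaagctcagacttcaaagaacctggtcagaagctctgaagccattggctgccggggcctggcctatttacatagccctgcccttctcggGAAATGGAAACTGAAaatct
In Oas1a the capitals are 2 overlapping matches. Of the 17 interferon-stimulated genes with a window, 9 (52.9%) held the motif, against 859 of 11730 tested genes with a window (7.32%). All 9 were called higher, but so were 22 of the 23 tested genes of the list, with or without the motif. A match of letters does not show that a factor was bound.

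Heat shock proteins, the chaperones that refold damaged proteins under the control of Hsf1, had 15 of 20 genes higher and none lower. Hsf1 itself was not called (0.00). Hspa1b, the main inducible Hsp70 gene (chromosome 17, 34956429 to 34959238), had 164, 121 and 82.1 CPM in ipsilateral and 6.73, 6.88 and 7.22 CPM in contralateral hemispheres (4.08 ± 0.26, adjusted p = 0.0040). Hspa1a, its near-identical copy, had 104, 85.0 and 39.8 CPM against 6.18, 6.73 and 6.22 CPM (3.47 ± 0.35, adjusted p = 0.0157), and its adjusted p without pool 2 was 0.0811. Pool 1 was the highest and pool 3 the lowest ipsilateral library for both, while the contralateral values were nearly equal. Hsph1, a large chaperone, had 1012, 731 and 676 CPM against 432, 326 and 376 CPM (1.08 ± 0.07, adjusted p = 5.45e-05). Hspa8 and Hsp90ab1, the constitutive forms, rose by 0.27 and 0.31, and Hspa8 lost its call with all 12 libraries (adjusted p = 0.0556).

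The promoters of the Hsp70 pair show how alike these genes are and where the heat shock element lies. Capitals mark GAANNTTC, the inverted repeat that Hsf1 is known to bind, searched on both strands of the 250 bases before each start in RefSeq (GRCm38.p6).
Hspa1b (chr17:34959239-34959488, minus strand): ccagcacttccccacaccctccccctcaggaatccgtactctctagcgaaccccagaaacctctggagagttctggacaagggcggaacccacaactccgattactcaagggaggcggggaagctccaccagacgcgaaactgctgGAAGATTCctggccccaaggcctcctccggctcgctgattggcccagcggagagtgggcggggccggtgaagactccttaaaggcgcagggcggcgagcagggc
Hspa1a (chr17:34972157-34972406, minus strand): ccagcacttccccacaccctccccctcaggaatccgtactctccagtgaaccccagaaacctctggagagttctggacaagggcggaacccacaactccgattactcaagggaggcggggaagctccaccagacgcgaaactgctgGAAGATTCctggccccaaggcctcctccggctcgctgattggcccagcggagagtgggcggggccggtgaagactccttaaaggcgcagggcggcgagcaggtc
The windows differ at 3 of 250 bases, and the match starts at the same base, 104 before the start, in both. Of 15 heat shock genes with a window 6 (40%) held the motif, against 729 of 11730 genes (6.21%). All 6 were called higher, where 15 of the 20 genes of the list were, with or without the motif. Other motifs were searched in the same way. The antioxidant element TGACNNNGC was in 4 of 12 Nrf2 genes (33.3%, against 13.8% of all), the E-box CACGTG in 5 of 15 clock genes (33.3%, against 9.56%), the cAMP element TGACGTCA in 2 of 13 late activity genes (15.4%, against 2.83%) and the metal response element TGCNCNC in 8 of 10 metallothionein and zinc genes (80%, against 57.5%). The AP-1 site TGANTCA was in 0 of 17 immediate early windows, against 5.69% of all.

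Of 18 genes of the integrated stress response, the Atf4 program that follows a block of translation, 14 rose and 1 fell (none fell without pool 1, pool 3 or the block, with all 12 libraries or with DESeq2), with Trib3 (2.21 ± 0.20), Chac1 (1.38 ± 0.10) and Mthfd2 (1.33 ± 0.09) first. The unfolded protein response of the endoplasmic reticulum had 11 of 18 higher, but its median was 0.19, and 4 were called without the block, 5 without pool 3 and 7 with all 12 libraries. Nrf2 antioxidant genes had 13 of 17 higher and 2 lower. Hmox1, heme oxygenase 1, had 40.1, 92.4 and 59.2 CPM against 4.08, 5.27 and 4.22 CPM (3.76 ± 0.14, adjusted p = 2.12e-05), with no overlap. The classical Nrf2 target Nqo1 was not called (-0.06), and the glutathione transferases Gstm1 (-0.28 ± 0.04) and Gsta4 (-0.31 ± 0.06) fell, Gsta4 with adjusted p = 0.0597 without pool 3. Iron genes had 7 of 14 higher and 2 lower, with ferritin light chain Ftl1 (0.87 ± 0.07) and Lcn2 higher and the iron exporter Slc40a1 (-0.61 ± 0.10) and its partner Heph (-0.56 ± 0.09) lower.

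Mt2, a metallothionein, had 178, 455 and 289 CPM against 66.4, 126 and 79.0 CPM (1.72 ± 0.09, adjusted p = 6.9e-05), and Mt1 319, 666 and 440.1 CPM against 134, 283 and 176 CPM (1.27 ± 0.04, adjusted p = 1.04e-07). Pool 2 was highest in both hemispheres; without the block the adjusted p of Mt1 was 0.0792. Of 12 metallothionein and zinc genes 5 rose and 4 fell, including the zinc importers Slc39a12 (-0.76 ± 0.07) and Slc39a10 (-0.37 ± 0.07, and adjusted p = 0.0627 without pool 1) and Slc30a3, which loads zinc into synaptic vesicles (-0.34 ± 0.08, and adjusted p = 0.0512 without pool 3); 3 rose without the block. Of 20 p53 targets and Bcl2 family genes 14 rose and 1 fell (none fell with all 12 libraries). Cdkn1a, the cell cycle inhibitor p21, had 87.6, 175 and 84.9 CPM against 30.9, 82.6 and 28.3 CPM (1.38 ± 0.10, adjusted p = 0.000265), again with pool 2 highest on each side, and an adjusted p of 0.16 without the block. Eda2r, a p53-induced death receptor, rose by 2.85 ± 0.19. Of 19 genes of the cell cycle and DNA replication 11 were higher, none lower and 8 not called, the largest being Uhrf1 (1.798 ± 0.18) and the helicase subunit Mcm3 (1.31 ± 0.12); Mki67, Cdk1, Ccna2 and Ccnb2 were among those not called, and without pool 3 the count was 6.

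Immediate early genes, which neurons and glia switch on within minutes, gave no common direction. Of 22, 4 rose and 4 fell, shares near the 17.1% of all genes called higher and 15% called lower. Atf3, a stress factor of injured neurons, had 17.2, 42.8 and 21.1 CPM against 1.87, 1.12 and 1.21 CPM (4.13 ± 0.40, adjusted p = 0.0086), and Fosl1 had 1.94, 3.55 and 2.14 CPM against 0.0288, 0.112 and 0.0928 CPM (4.94 ± 0.31, adjusted p = 4.23e-06). Both were without overlap. Egr4, a factor tied to neuronal activity, had 31.2, 17.8 and 26.0 CPM against 54.4, 26.2 and 43.9 CPM (-0.71 ± 0.06, adjusted p = 3.31e-05), lower in each pool but overlapping across pools, and its adjusted p without the block was 0.163. Egr3 fell by 0.63, and its adjusted p without the block was 0.079. Fos had 67.8, 71.5 and 61.1 CPM in ipsilateral and 79.9, 22.4 and 63.4 CPM in contralateral libraries, Npas4 31.8, 25.0 and 26.0 against 43.0, 12.1 and 39.8 CPM, and Arc 357, 157 and 202 against 415, 115 and 280.2 CPM, none of them called. In these 3 genes the contralateral library of pool 2 was the lowest of its side, and for Npas4 and Arc so was the ipsilateral one. The list median was -0.21, 0.90 and -0.07 in pools 1, 2 and 3. Without pool 2, 10 of the 22 were called lower and 6 higher, without pool 3 or with all 12 libraries, 2 lower, and without the block none lower. Fos and Npas4 were named after their values were seen.

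Late activity genes had 4 higher and 5 lower of 16, with the neuronal pentraxin Nptx2 (165, 142 and 147 CPM against 79.7, 74.8 and 55.7 CPM, 1.13 ± 0.09, adjusted p = 0.000291) and the growth arrest gene Gadd45g (1.06 ± 0.10) first. Of 16 tested genes of nerve injury and regeneration 8 rose and 5 fell. Tnfrsf12a (2.23 ± 0.31) and the tubulin Tubb6 (2.10 ± 0.12) followed Atf3, while the growth cone genes Stmn2 (-0.24 ± 0.05) and Gap43 (-0.19 ± 0.06) fell; Gap43 lost its call without pool 1 (adjusted p = 0.159), without pool 3 (adjusted p = 0.0643), without the block (adjusted p = 0.0691) and with all 12 libraries (adjusted p = 0.0654). MAP kinase phosphatases and Sprouty genes had 4 of 15 higher and 1 lower, where 17.1% of all genes were called higher and 15% lower. Dusp10 led (0.92 ± 0.20), and its adjusted p without pool 3 was 0.0581. The clock had 7 of 17 lower and 2 higher, with Hlf (-0.46 ± 0.04) and Npas2 (-0.39 ± 0.06) lowest. Of 18 glucocorticoid targets 7 rose and 2 fell, but the general targets Fkbp5 (0.05), Sgk1 (0.03) and Per1 (0.07) were not called, and those that rose most, Lcn2, Mt2, Cdkn1a and Mt1, stand in other lists above. Without the block the clock count was 3 lower and none higher, 2 glucocorticoid targets were called higher and none lower, 2 late activity genes were lower and 3 injury genes were lower. Without pool 1 it was 2 injury genes that were lower, without pool 2 or 3 no clock gene was higher, and without pools 2 and 3 in turn 4 and 2 clock genes were lower. Without pool 3, 2 late activity genes were higher, 3 injury genes and 1 glucocorticoid target were lower, and 2 kinase phosphatase genes were higher and none lower; without pool 2, 3 of these were lower. With all 12 libraries 1 clock gene was higher and 4 were lower, and 3 injury genes were lower; with DESeq2 1 clock gene was higher.

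Hypoxia-induced genes had 4 higher and 4 lower of 19 with a median of 0.00, where 17.1% of all genes were called higher and 15% lower. Of 15 glycolysis genes 10 were lower, by 0.14 to 0.35 on the log2 scale. The 2 glycolytic genes that rose were Hk2, an inducible hexokinase (11.3, 14.1 and 14.0 CPM against 6.21, 4.71 and 6.2 CPM, 1.19 ± 0.13, adjusted p = 0.00021), and the lactate exporter Slc16a3 (0.63 ± 0.15), whose adjusted p without pool 3 was 0.101. Adm, adrenomedullin, a vasodilator peptide, led the hypoxia list (1.21 ± 0.18). Vegfa was not called (0.16). Nuclear oxidative phosphorylation genes had 4 of 24 lower, near the 15% of all genes called lower, and 20 not called. All 6 tested mitochondrial genes were lower, for example mt-Co1 with 10514, 11734 and 10250 CPM against 11890, 14572 and 12805 CPM (-0.27 ± 0.05, adjusted p = 0.00191). None of these 6 was called without the block. The remaining 5 mitochondrial genes listed had 0 to 3 reads in every library, among them mt-Co2 and mt-Co3, although these messages are known to be abundant in brain, and they were not analysed here. Without the block 2 hypoxia genes were higher and 2 lower, 4 glycolysis genes and 1 nuclear oxidative gene were lower; without pool 3 these counts were 1, 1, 3 and 0. With all 12 libraries 1 hypoxia gene was higher, and with DESeq2 2 were higher and 2 lower.

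Of 34 genes of cytosolic ribosomal proteins 32 were higher and none lower, with a median of 0.26, and pool medians of 0.29, 0.26 and 0.26. Rplp0, an acidic stalk protein, had 176, 202 and 188 CPM against 116, 131 and 121 CPM (0.62 ± 0.04, adjusted p = 6.98e-06). Of 31 proteasome subunits 18 were higher, none lower and 13 not called (median 0.16). All tested members of both lists had a positive log2 fold change, but with all 12 libraries in the fit 5 subunits were called and without pool 3 only 2. Lysosomal proteins had a median of 0.43, 14 of 18 being higher and 2 lower, with the cathepsins Ctsc (1.41 ± 0.07), Ctsz (1.04 ± 0.05) and Ctsl (0.79 ± 0.08) first. Psap, prosaposin, which neurons make in quantity, fell (-0.26 ± 0.04); without pool 2, pool 3 or the block, with all 12 libraries and with DESeq2, 1 lysosomal gene was called lower. Annexins, S100 proteins and galectins had 16 of 21 higher and none lower (1 lower without pool 2). Cholesterol synthesis was nearly flat, with 1 of 19 called higher (4 without pool 1, none without pool 2, pool 3 or the block or with DESeq2, and 1 lower without pool 2), while cholesterol efflux and storage had 6 of 14 higher and 2 lower. Ch25h, cholesterol 25-hydroxylase, had 7.48, 11.9 and 7.32 CPM against 1.73, 2.62 and 1.02 CPM (2.36 ± 0.15, adjusted p = 5.64e-06) and the lipid droplet coat Plin2 rose by 2.16 ± 0.16.

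**Figure D4:**
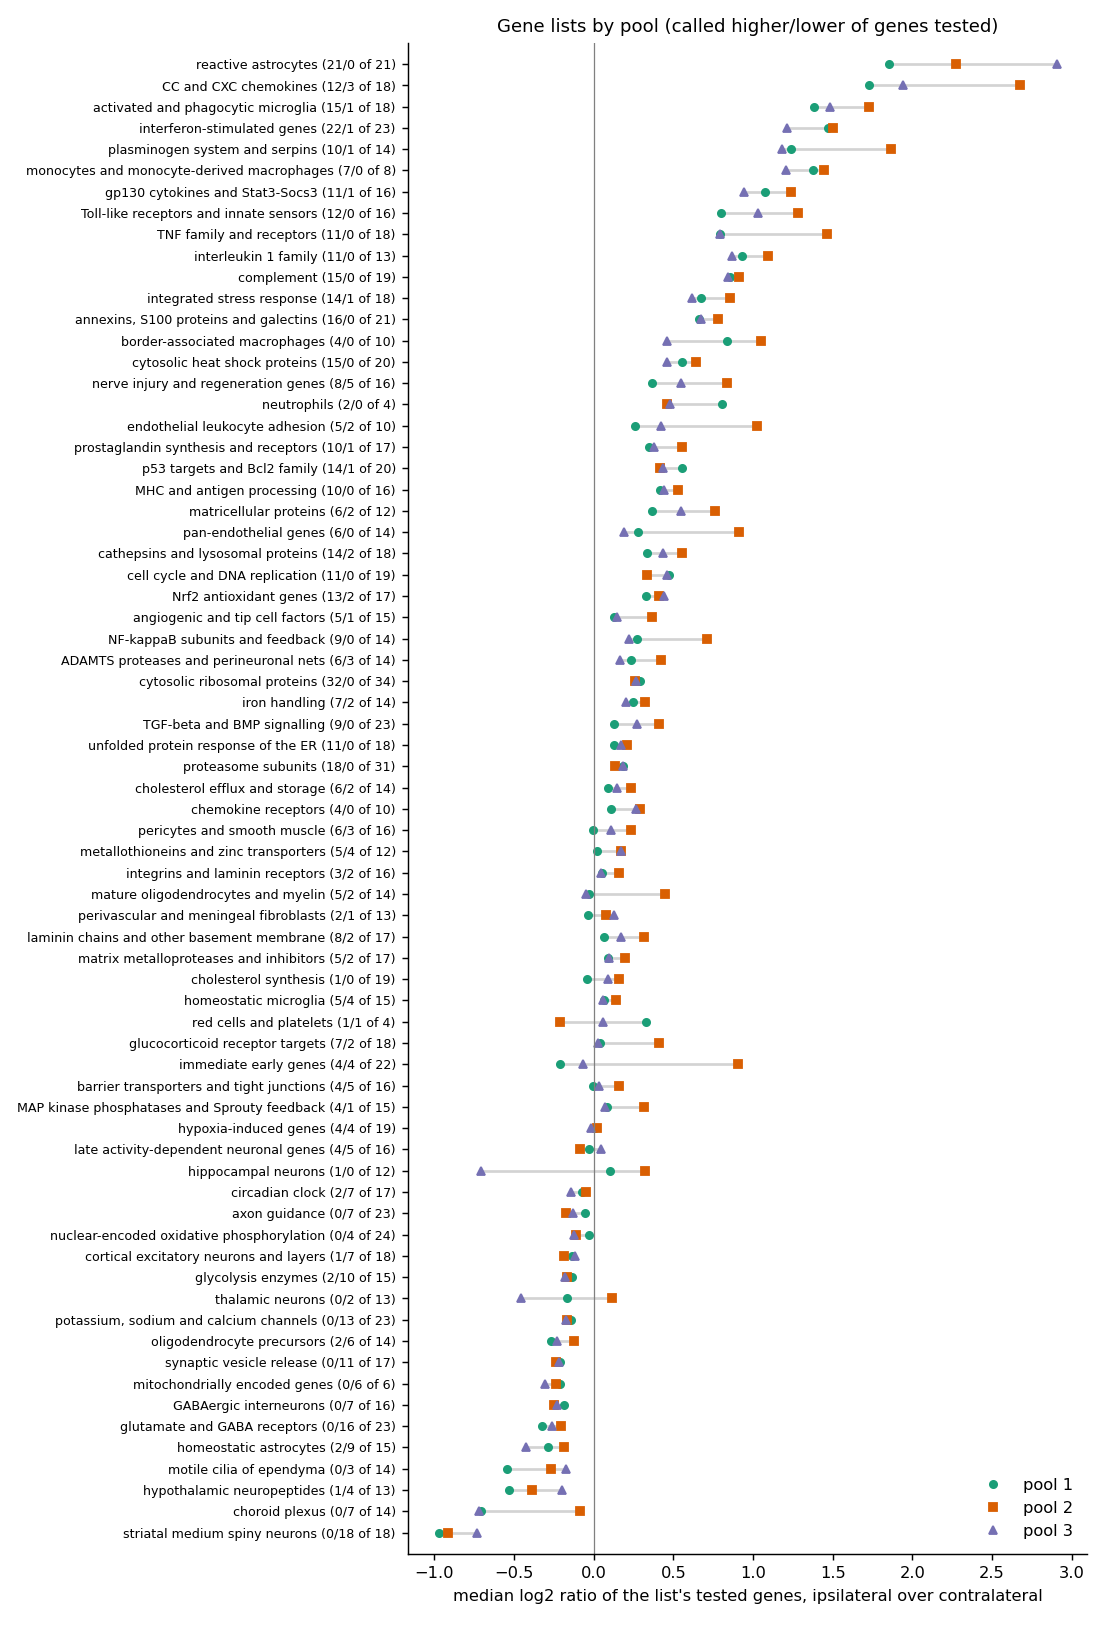
Median log2 ratio, ipsilateral over contralateral, of the tested genes of each list with at least 3 tested genes, in pools 1, 2 and 3; the counts beside each name are genes called higher and lower of those tested. Lists run down the page by their fitted median, from reactive astrocytes (1.85, 2.28 and 2.90 by pool) to striatal neurons, and pool 2 lies apart for immediate early genes at 0.90.

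Of 14 pan-endothelial genes, which mark the cells lining the vessels, 6 rose, none fell and 8 were not called, with medians of 0.28, 0.91 and 0.19 in pools 1, 2 and 3. Pecam1, an adhesion protein of endothelial junctions, had 33.6, 54.5 and 34.7 CPM against 23.8, 25.0 and 22.5 CPM (0.75 ± 0.12, adjusted p = 0.0062). Among leukocyte adhesion genes 5 of 10 rose and 2 fell. Sele, E-selectin, had 0.932, 1.15 and 1.12 CPM against 0.288, 0.0374 and 0.116 CPM (2.78 ± 0.43, adjusted p = 0.00125). Icam1 had 10.8, 15.2 and 11.7 CPM against 6.56, 2.77 and 3.3 CPM and Selp, P-selectin, 1.13, 2.71 and 1.31 against 0.892, 0.112 and 0.186 CPM; their hemispheres did not overlap, yet neither passed the test (adjusted p = 0.0686 and adjusted p = 0.139). Without the block the adjusted p of Icam1 was 0.012. Both were lowest on the contralateral side of pool 2. Icam1 and Selp were named after their values were seen. Without pools 2 and 3 in turn 3 and 2 adhesion genes were called higher, and 3 with upper quartile factors, and none was called lower without pool 1 or without pool 3.

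Of 16 barrier genes 4 rose and 5 fell, where 17.1% of all genes were called higher and 15% lower. The transporters Slco1c1 (44.1, 34.4 and 40.1 CPM against 61.3, 50.6 and 65.8 CPM, -0.58 ± 0.06, adjusted p = 7.03e-05), Slco1a4 (-0.53 ± 0.05) and Mfsd2a (-0.35 ± 0.06) fell, while Ocln and, from the endothelial list, Cldn5, which seal tight junctions, were not called (-0.01 and 0.24). Mfsd2a, a lipid transporter that restrains transcytosis, had 28.0, 45.4 and 26.6 CPM against 36.1, 62.6 and 30.8 CPM, overlapping across pools, and its adjusted p without the block was 0.507. Angiogenic genes had 5 of 15 higher and 1 lower, with the urokinase receptor Plaur (2.74 ± 0.24) and Angpt2, which destabilizes vessels (1.49 ± 0.29), first. Of 16 mural cell genes 6 rose and 3 fell, Des, the filament desmin, rising most (1.16 ± 0.16). Fibroblast genes had 2 of 13 higher and 1 lower, shares no larger than the 17.1% of all genes called higher and 15% called lower. Col3a1 rose by 1.14 ± 0.11. Slc22a6 was the gene that fell, a call lost without the block (adjusted p = 0.0687) and without pool 3 (adjusted p = 0.081). Red cell and platelet genes had 1 of 4 tested higher, Itga2b (0.98 ± 0.15), and 1 lower, Gp1bb (-0.34 ± 0.11), the Gp1bb call being lost without the block (adjusted p = 0.0675), without pool 2 (adjusted p = 0.177), without pool 3 (adjusted p = 0.139), with all 12 libraries (adjusted p = 0.0627) and in DESeq2 (adjusted p = 0.149). Without the block 3 barrier genes and no angiogenic or fibroblast gene were lower; without pool 3 2 barrier genes were higher, 1 mural gene was lower and again no angiogenic or fibroblast gene. Without pool 1, 4 fibroblast genes were higher and no angiogenic gene was lower, and without pool 2, 2 of each were lower. With DESeq2 3 angiogenic genes were higher and none lower; with all 12 libraries no angiogenic gene was lower and 4 fibroblast genes were higher.

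Of 17 laminins and other basement membrane genes 8 rose, 2 fell and 7 were not called, with a median of 0.08. Lama4 (chromosome 10, 38965515 to 39110188), the endothelial laminin alpha 4 chain, had 14.7, 14.6 and 14.4 CPM in ipsilateral and 10.8, 7.4 and 9.24 CPM in contralateral hemispheres (0.68 ± 0.10, adjusted p = 0.000994), without overlap. Col4a1, a chain of collagen IV, had 129, 205 and 129.6 CPM against 76.1, 98.1 and 75.2 CPM (0.87 ± 0.06, adjusted p = 2.42e-05), and the proteoglycan Hspg2, perlecan, rose by 0.90 ± 0.19, with adjusted p = 0.063 without pool 3 and 0.0529 with no filter. Lamc3 (-0.51 ± 0.09) and the synapse organizer Agrn (-0.27 ± 0.05) fell. With all 12 libraries 5 were called higher. Of 16 integrins 3 rose and 2 fell, shares near the 17.1% of all genes called higher and 15% called lower. Itga7 (0.73 ± 0.06) and Itgb1 (0.47 ± 0.06) led, while Itga5, the fibronectin receptor, had 16.5, 32.9 and 20.7 CPM against 9.15, 6.88 and 7.03 CPM and an adjusted p of 0.0505, just above the threshold; it was named after its values were seen. Without the block 1 integrin was called lower, 1 without pool 1, 1 with DESeq2, and none without pool 3 or with all 12 libraries.

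Of 17 metalloproteases and inhibitors 5 rose and 2 fell, where 17.1% of all genes were called higher and 15% lower. The increases were those of Mmp3, Mmp12 (5.32 ± 0.30), Adam8 (2.90 ± 0.49), the inhibitor Timp1 (2.70 ± 0.37) and Mmp19 (1.94 ± 0.18). Adam8 was no longer called without pool 1 (adjusted p = 0.204) or with no filter (adjusted p = 0.0722), nor Timp1 without pool 2 (adjusted p = 0.0875). Mmp9 and Mmp2, the gelatinases, were not called (0.36 and -0.09). The plasminogen system had 10 of 14 higher and 1 lower (2 lower without pool 2), and Klk6, a kallikrein protease of the nervous system, had 24.3, 28.6 and 26.1 CPM against 3.16, 2.24 and 2.6 CPM (3.28 ± 0.12, adjusted p = 6.61e-07). Tnc, the matricellular protein tenascin C, had 37.2, 52.95 and 47.6 CPM against 6.07, 5.12 and 6.17 CPM (2.96 ± 0.13, adjusted p = 1.58e-05), and 6 of 12 matricellular genes rose and 2 fell. Of 14 ADAMTS and perineuronal net genes 6 rose and 3 fell; Bcan, brevican, had 187, 220.4 and 158 CPM against 256, 285 and 271 CPM (-0.54 ± 0.08, adjusted p = 0.00237). Neither Tnc nor Bcan overlapped between hemispheres. Prostaglandin genes had 10 of 17 higher and 1 lower, Ptgs2, the inducible cyclooxygenase, standing at 47.7, 46.6 and 45.6 CPM against 28.8, 22.7 and 23.5 CPM (0.90 ± 0.07, adjusted p = 1.36e-05). Without pool 1 or pool 3 the ADAMTS count was 3 higher; 1 metalloprotease and 1 matricellular gene were lower without the block, without pool 3 or with all 12 libraries, and 1 matricellular gene without pool 2, and 1 ADAMTS or net gene was lower without pool 3. The prostaglandin count was 6 without the block or without pool 3 and 5 with DESeq2, and no prostaglandin gene was lower without the block or without pool 1.

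Of the 547 genes called higher at 2-fold or more, 313 had their largest log2 ratio in pool 2, 115 in pool 1 and 119 in pool 3. The median log2 ratio of all genes called higher was 0.38, 0.50 and 0.39 in pools 1, 2 and 3, and that of genes called lower was -0.24, -0.28 and -0.25. The median SD over the pools was 0.354 for the 2-fold higher genes and 0.0858 for the lower ones, against 0.108 for all genes tested. Pool 2 was not high throughout: striatal markers had medians of -0.97, -0.92 and -0.73, and the Hsp70 genes were highest in pool 1. Adamts1, a protease of versican, missed the threshold, with 82.2, 137 and 84.7 CPM against 33.8, 20.0 and 24.4 CPM and a log2 fold change of 1.92 ± 0.38, an adjusted p of 0.0612, and 0.00578 without the block; it was named after its values were seen.

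The Lama4-/- libraries, which share no library with the WT comparison, moved the same way for most genes called in WT. Of the 4826 genes called in WT 4809 were tested in Lama4-/- pools, and 4736 of these (98.5%) had the same sign. The same paired test called 3413 of 15150 genes (22.5%) in Lama4-/-; these included 2656 of the WT calls with the same sign, 55.2% of the WT calls tested and 77.8% of the Lama4-/- calls, and 0 with the opposite sign. Over all 14992 genes tested in both, 80.0% had the same sign. Striatal markers had a median of -0.99 in Lama4-/- and -0.88 in WT, and reactive astrocytes 2.58 and 2.63. Other lists lay further apart. Immediate early genes had a median of 0.82 in Lama4-/- and 0.05 in WT, with 13 and 4 of 22 called higher, and monocyte genes 2.30 and 1.31. Ribosomal proteins had 7 of 34 called higher in Lama4-/- and 32 in WT, and proteasome subunits 1 of 31 and 18, but the difference was not called for any gene.

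The test of the difference itself, Lama4-/- stroke change minus WT stroke change, called 0 of 15351 genes (0%) in edgeR, 665 at an unadjusted p under 0.05, and 1 in DESeq2; leaving out pool 2 of WT gave 2. The lowest p was that of Ccl9, a chemokine of myeloid cells, which rose by 4.16 ± 0.14 in Lama4-/- and by 2.79 ± 0.13 in WT (adjusted p = 0.449). Il1b rose by 3.30 ± 0.30 in Lama4-/- and 0.90 ± 0.31 in WT, Chil3, a chitinase-like protein of myeloid cells, by 4.03 ± 0.31 and 1.51 ± 0.33, and Tgfbi by 2.52 ± 0.11 and 1.77 ± 0.10, each with adjusted p = 0.874. Aldh1a3, a retinaldehyde dehydrogenase, had 1.399 ± 0.19 in Lama4-/- and 0.22 ± 0.16 in WT, where it was not called. None of these differences passed the threshold, so no change above is shown to be particular to WT.

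**Figure D5:**
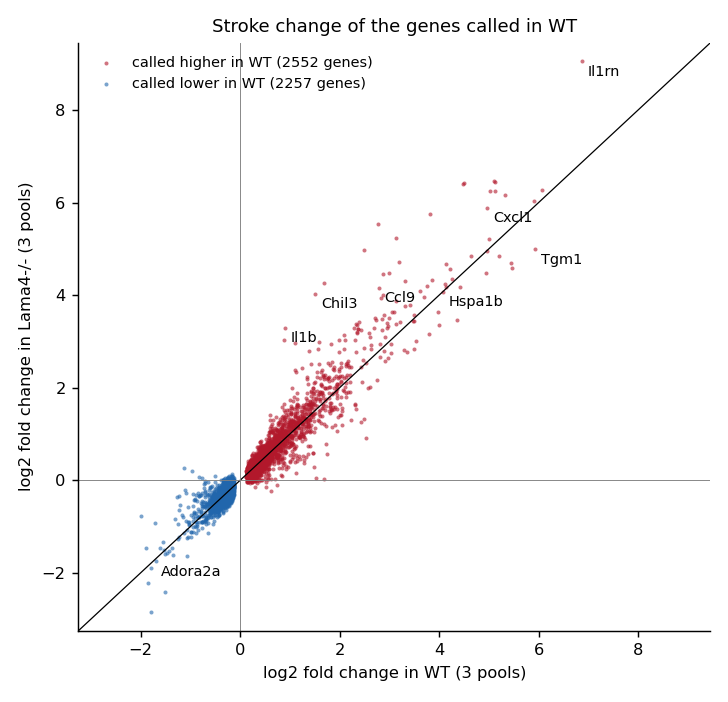
Log2 fold change, ipsilateral over contralateral, in Lama4-/- pools (vertical) against WT pools (horizontal) for the genes called in WT and tested in both, with 1 point a gene and the line of equal change. Of 4809 genes 4736 lie on the same side of 0 in both genotypes.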

How the data were processed

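Polyadenylated RNA of whole hemispheres was sequenced, per the labels, and the table the authors deposited holds raw counts of reads per gene for each library, with no per-sample column left unused (0). The submitters' processing notes name STAR 2.6.0 and featureCounts 1.6.4, beside bcl2fastq and FastQC 0.72, and DESeq2. The labels' protocols name a single-cell 3' kit, so which kit made these bulk libraries is unclear; the sources used here state neither strandedness nor the annotation used in counting. Reads of overlapping or antisense genes can therefore not be told apart. Libraries were grouped by their labels. The members and gene lists were chosen with earlier results of these data known.

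Counts were tested with edgeR 4.0.16 (R 4.3.3; filterByExpr, TMM, robust quasi-likelihood) and called at a Benjamini-Hochberg adjusted p under 0.05; adjusted p-values in the text come from this test unless another is named. CPM use the TMM-scaled library size, and a prior count of 2 was used for log CPM. Pool was a block, as the comparison was set up in pairs by number. Libraries of the same number also deviated together over 15056 genes (correlations 0.284, 0.369 and 0.225, against -0.284 to 0.048 for other pairs). Deviations were taken from the mean of each side, so positive values for the same number push the other pairs below 0 on balance. The shared numbers come from the labels, which do not state that a number marks the same mice. The pairing was set by these numbers, and without it 2885 genes were called in place of 4826. In the paired fit a p-value weighs the change against the spread left between these libraries after the block. Each library pooled 2 mice, so the spread between single mice was not measured. Only the paired edgeR fit on the WT libraries was tested on simulated counts. Alternatives were no block, all 12 libraries, RLE and upper quartile factors, DESeq2 1.42.0, voom in limma 3.58.1, no filter, a CPM of at least 1 in 3 libraries, and each pool left out.

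Named by rule were Lama4, the 15 largest changes in each direction without overlap at a mean of at least 1 log2 CPM, the 5 lowest p in each direction, the 5 lowest p of the genotype difference and, per list, the 3 largest called changes in each direction and the 2 most abundant genes. The other genes with values were added after their values were seen. Positions and promoters come from RefSeq (GRCm38.p6). Some genes are not reported here by name; they still count in the lists they belong to.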

Additional observations from a re-analysis of the deposited data

Results flagged for a closer look

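Anxa6, an annexin that binds membranes, and Fezf2, a factor of deep cortical layers, moved oppositely in the pools of the genotypes. Anxa6 had a mean log2 ratio, ipsilateral over contralateral, of -0.098 in the 3 Lama4-/- pools, all below 0, and 0.025 in the 3 WT pools, all above 0. Fezf2 had -0.069 in Lama4-/- and 0.082 in WT pools. The edgeR test of the difference gave an adjusted p of 0.874 for both genes, so neither difference passed the threshold.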

How the results depend on the processing

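The WT count of 4826 calls was 2885 with no replicate block, 3608 with all 12 libraries, 3288 in DESeq2 and 4591 to 4884 in the other fits that kept all pools; leaving out 1 pool gave 2183 (pool 3) to 4119 (pool 2). The Lama4-/- count of 3413 was 1732 to 3867 with 1 pool left out, the lowest without pool 3. The genotype difference had 1 call in DESeq2 and 0 to 2 with 1 pool left out (2 without WT pool 2). Pairing by pool moved calls more than scaling did. Of 352 called named genes 69 were lost with no replicate block, 85 without pool 3, 36 without pool 1, 27 without pool 2, 38 with all 12 libraries, 29 in DESeq2 and 1 to 6 with another filter or scaling, while 227 were kept in every alternative run that tested them. A gene that a fit's filter removed was not counted as lost, so these numbers can understate losses at low counts. With a floor of 1 CPM in 3 libraries, higher calls went from 22 to 18 in the interferon list and from 11 to 6 in the interleukin 1 list. With 1 pool left out, the median log2 fold change of the myelin list lay between -0.098 (without pool 2) and 0.218 (without pool 1), that of red cells and platelets between -0.057 (without pool 1) and 0.170 (without pool 2), and that of glucocorticoid targets between -0.012 (without pool 2) and 0.189 (without pool 3), so each changed sign. The cause of these moves was not tested, and a fit with a pool left out also holds fewer libraries. With 3 pools of 2 mice, small changes and genes near 1 CPM are the least certain, and single-pool departures, such as that of pool 2 in immediate early genes, cannot be told apart from differences between mice.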
